A study of Mus musculus with 6 samples.

Results

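Alveolar type 1 (AT1) cells were picked out of single-cell libraries of whole aged mouse lung by the transcripts each barcode held. A barcode was taken as an AT1 cell when it had at least 300 genes, at least 500 UMIs (unique molecular identifiers, 1 per captured transcript) and at most 15% mitochondrial UMIs, at least 2 UMIs of Ager, at least 1 of Hopx and at least 1 of Rtkn2, Akap5 and Aqp5 together, and none of Lamp3, Cdh5, Ptprc or Pdgfra. This selection kept 421 of 91156 barcodes that passed the filters on genes, UMIs and mitochondrial share, of 94392 deposited. The members were thus chosen by measured counts, and the 9 genes of the gate are described below but not tested.

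All 6 libraries came from male mice of 21 months, 1 mouse and 1 library each. The 3 mice labelled p16-DTR carried p16-CreERT2, a tamoxifen-activated recombinase driven by the p16 promoter, together with R26-LSL-DTR, a diphtheria toxin receptor that recombination switches on, on a C57BL/6 background. The 3 control mice carried p16-CreERT2 and no receptor. Both groups received tamoxifen for 5 days and, after 2 weeks, diphtheria toxin for 5 days, followed by 2 weeks of recovery, so that the toxin and the recombinase were shared and the receptor was the difference. After sorting, 20000 cells lacking CD45 and 9000 bearing it were pooled for each library, so the ratio of immune to other cells was set in advance.

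AT1 cells are the very thin epithelial cells that cover most of the alveolar surface and, with the capillary endothelium on the other side of a shared basement membrane, form the barrier across which gas is exchanged. In the adult lung they can arise from alveolar type 2 (AT2) cells, the surfactant-producing epithelium. AT1 cells keep their identity with the help of the transcriptional co-activators YAP and TAZ and their TEAD partners. They secrete VEGF-A to the capillaries beneath them, and lie against aerocytes, the Car4-positive capillary cells specialised for gas exchange. Being large, flat and fragile, they are known to be recovered poorly by enzymatic dissociation.

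The libraries held 13482 to 17332 barcodes and 254200305 to 344421685 UMIs. Median depth was 17091 to 18495.5 UMIs per retained barcode. No predicted doublet was among the AT1 cells, and no barcode sequence was shared between AT1 cells of different libraries. The p-values below measure the spread between 3 mice per group. Intervals and limits on a count of 0 cover counting error only.

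The gate removed most barcodes with Ager. Of 2067 retained barcodes with at least 2 Ager UMIs, 1527 also held Hopx and 1316 of those held Rtkn2, Akap5 or Aqp5. Among these 1316, a UMI of Lamp3 (an AT2 gene) was present in 512, of Cdh5 (endothelium) in 415, of Ptprc (all leukocytes) in 225 and of Pdgfra (fibroblasts) in 199. The exclusions also removed 71 barcodes with at least 5000 UMIs and at least 5 Ager UMIs per 1000. At the threshold itself, the 41 members with exactly 2 Ager UMIs had 326 CPM (counts per 1 M UMIs) of Clic5, and the 59 barcodes that met every other condition with 1 Ager UMI had 367. Both values pool UMIs, so the deepest barcodes weigh most. By library, Clic5 gave 23 of 5571, 13 of 3782 and 18 of 5935 UMIs of these members in p16-DTR. In the controls it gave 6 of 57529, 18 of 93550 and 13 of 113129, and 1 cell of the first control library held 54143 of those UMIs.

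The 421 cells fell into 2 groups by depth. There were 277 shallow cells with under 5000 UMIs and 144 deep cells with 5000 or more, of which 102 had over 20000. Median depth of AT1 cells was 1400.5 to 2233 UMIs per library, far below that of all retained barcodes. Barcodes that met the conditions on Ager, Hopx and Rtkn2, Akap5 or Aqp5, before the exclusions, had medians of 22551 to 39527 UMIs. Those of them with a UMI of an excluded gene had medians of 20940 to 53409. The low median thus belongs to the members left after the exclusions. The shallow cells were the majority by number but held only 7.80% to 11.4% of each library's AT1 UMIs, so the summed counts used below describe mainly the deep cells. The 5 deepest cells alone gave 17.6% to 54.9% of a library's AT1 UMIs, the highest value belonging to the second p16-DTR library, which had 34 cells.

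The deep cells were of 2 kinds by Ager, a gene of the gate. In 129 deep cells, Ager made up at least 4.96 of every 1000 UMIs, with a median of 397 Ager UMIs per cell. All 129 also had a UMI of Clic5 and of Vegfa, AT1 genes that the gate did not use, with medians of 88 and 117 UMIs. The other 15 deep cells had at most 0.876 Ager UMIs per 1000 and between 2 and 18 Ager UMIs in all, with a gap between both kinds. Some of these also had UMIs of Clic5 (at most 15) or Vegfa (at most 23). Of these 15, 7 had over 100 UMIs of Scgb1a1, the secretory protein of airway club cells, 5 of them over 1000. Both Foxj1 and Ccdc153, genes of ciliated cells, were found in 4, of which 1 is also among those 7. They were spread unevenly, with 0, 0 and 2 in the p16-DTR libraries and 1, 7 and 5 in the controls. They made up 0%, 0% and 11.4% of AT1 UMIs in the former and 8.404%, 14.2% and 14.8% in the latter.

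The 4 secretory airway markers (Scgb1a1, Scgb3a2, Scgb3a1 and Cyp2f2) show the same cells. Their summed level was 0.0070% to 2.29% of AT1 UMIs in the p16-DTR libraries and 0.0054% to 5.32% in the controls. When the 35 members with under 2 Ager UMIs per 1000 (the 15 deep ones and 20 shallow ones, called low-Ager below) were left out, it was at most 0.0089% in any library, and Foxj1 was at 0. The AT1 share, the called genes and the Cdkn2a share are therefore given below with and without these 35 cells, and list counts of genes without overlap with all members. Endothelial markers summed to at most 0.0086% of AT1 UMIs and lymphocyte markers to at most 0.00036%. AT2 markers summed to 0.048% to 0.227% in p16-DTR and 0.044% to 0.138% in control libraries. Fibroblast markers reached 0.0706% in the first control library and ciliated markers 0.0928% in the third. Without low-Ager members these were at most 0.0088% and 0.0511%. Platelet markers (Pf4 and Ppbp) summed to at most 0.00065% in p16-DTR libraries and to 0.00047%, 0.0215% and 0.0457% in the controls. The third control library kept 0.0303% without low-Ager members, and its shallow members held 0.507%.

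**Figure D1:**
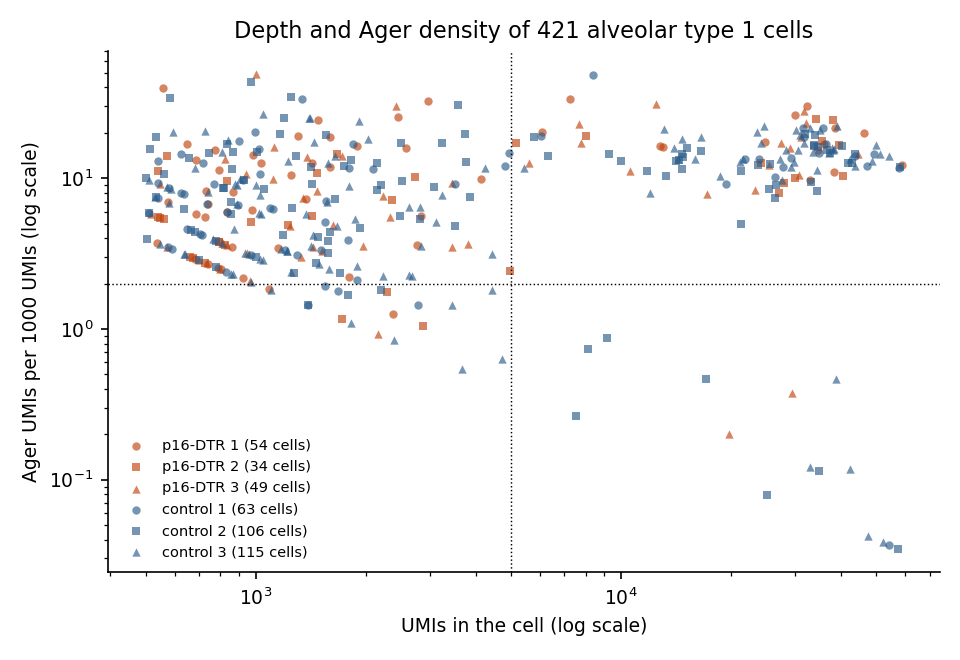
Each point is 1 of 421 AT1 cells, placed by its UMIs (x, log scale) and its Ager UMIs per 1000 (y, log scale). Colour gives the group, symbol the replicate, and dotted lines mark 5000 UMIs and 2 Ager UMIs per 1000. The 129 deep cells at upper right are separated from the 15 at lower right, 13 of which are from control libraries.

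AT1 genes that the gate did not use were high in all 6 libraries. Counts of AT1 cells were summed per library and scaled to CPM. All 26 genes of an AT1 identity list were detected, and 20 of them had a mean CPM at least 10 times that in the other retained barcodes. Cldn18, a tight junction claudin, had 3405, 3914 and 3308 CPM in the p16-DTR libraries and 3696, 3209 and 3789 in the controls, with a mean of 905 in AT2 cells and 1.43 in aerocytes. Pdpn, the podoplanin gene whose product is the classic AT1 surface antigen, had 958, 693 and 774 CPM against 849, 756 and 834, with 2.74 in AT2 cells. The libraries of both groups overlapped for both genes.

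Several of these genes were closer in level to the capillary cell across the barrier than to the AT2 cell. Clic5, a chloride channel protein, had a mean of 3104 CPM ± 343 (SD, n = 6) in AT1 cells, 60.6 in AT2 cells and 1695 in aerocytes. Cav1, the main protein of caveolae, had 1575 ± 164 (SD, n = 6), 6.29 and 926 in the same order. Emp2, a membrane protein of the tetraspan family, had 3820 ± 420 (SD, n = 6), 299 and 3250.5. Dpysl2 was higher in aerocytes (671 CPM) than in AT1 cells (461 ± 27.6, SD, n = 6). These levels are descriptions, since the members were chosen on counts of the same cells.

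The 20 genes with the highest ratio to other barcodes, among those of at least 100 CPM, were Rtkn2, Scnn1g, Igfbp2, Slc22a22, Scel, Scnn1b, Ager, Akap5, Itgb6, Col4a3, Lama3, 2210011C24Rik, Bdnf, Flrt3, Aqp5, Krt7, Col4a4, Sh3rf2, Popdc3 and Platr22, of which Rtkn2, Ager, Akap5 and Aqp5 belong to the gate. Some were also found in AT2 cells, with mean levels there of 709 CPM for Ager, 363 for Aqp5, 101 for Col4a3 and 17.4 for Platr22, which in AT1 cells averaged 171. Scel, which encodes sciellin, had 1182 CPM ± 367 (SD, n = 6) against 3.02 in other barcodes and 0.342 in AT2 cells. Bdnf, the neurotrophin gene, had 704, 413 and 377 CPM in the p16-DTR libraries and 593, 584 and 480 in the controls, against 2.91 in other barcodes. The groups overlapped for Bdnf.

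**Figure D2:**
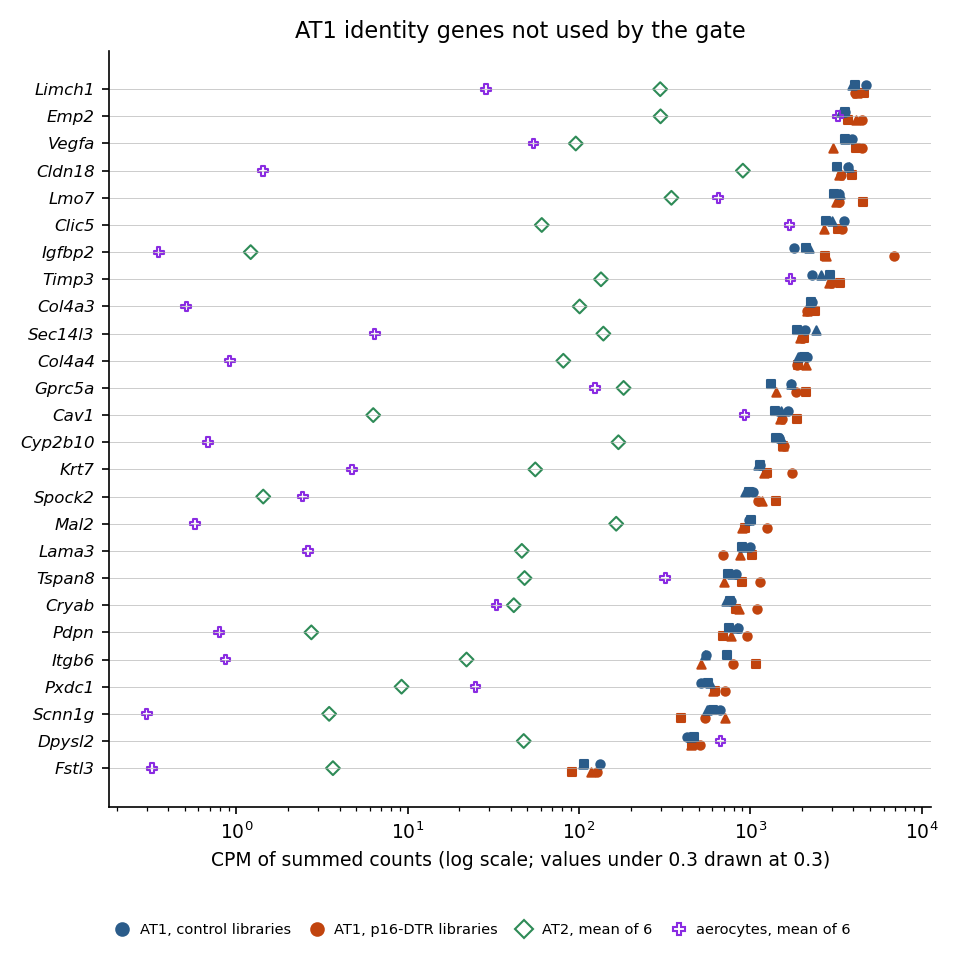
CPM (x, log scale) of the 26 AT1 identity genes (y) in the AT1 cells of each library, with the mean of 6 libraries in AT2 cells (diamonds) and aerocytes (plus signs). The AT1 values of the 6 libraries cluster for most genes, Igfbp2 in the first p16-DTR library (6855 CPM) being the widest departure, and aerocytes approach AT1 cells for Emp2, Clic5, Timp3 and Cav1.

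The basement membrane between AT1 cells and capillaries is built of laminins and type IV collagens, and AT1 cells held the alveolar α3 and α4 chains. Col4a3 had 2130, 2381 and 2144 CPM in the p16-DTR libraries and 2277, 2263 and 2243 in the controls, against 101 in AT2 cells and 0.51 in aerocytes. Col4a4 averaged 1993 CPM ± 116 (SD, n = 6) and was at 0.914 in aerocytes. Lama3, a laminin α chain, averaged 896 ± 115 (SD, n = 6) against 2.62 in aerocytes. All 3 genes varied little between mice.

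Among transport genes, the epithelial sodium channel was complete. Scnn1a averaged 774 CPM ± 97.7 (SD, n = 6), Scnn1b 331 ± 22.9 and Scnn1g 580 ± 112. The β and γ subunit genes were at 9.17 and 3.48 CPM in AT2 cells, and the α subunit gene at 84.4. Aqp5, the water channel used by the gate, averaged 1982 ± 458 CPM (SD, n = 6).

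AT1 cells also carried transcripts of secreted signals. Vegfa, which acts on capillaries, had 4469, 4125 and 3054 CPM in the p16-DTR libraries and 3918, 3577 and 3569 in the controls, against 95.7 in AT2 cells. The semaphorin genes Sema3e and Sema3a, whose products guide vessels and axons, averaged 1965 ± 255 and 940 ± 331 CPM (SD, n = 6), against 10.3 and 1.39 in AT2 cells. Of the receptors and activators of the TGF-beta pathway, Itgb6, the integrin subunit that activates latent TGF-beta, averaged 703 ± 217 CPM (SD, n = 6) against 22.1 in AT2 cells, and Tgfbr2 250 ± 46.4 against 85.1.

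Shallow and deep AT1 cells differed in kind of RNA as well as in amount. Ribosomal protein genes gave 5.16% to 7.14% of UMIs in shallow AT1 cells and 1.43% to 2.10% in deep Ager-dense ones. Malat1, a nuclear-retained RNA, gave 0.79% to 2.08% in shallow and 6.89% to 8.24% in deep cells. Mitochondrial genes gave 2.301% to 3.19% in shallow and 1.23% to 2.15% in deep cells. No library of one kind overlapped the other in any of these 3 measures, and in both ribosomal protein genes and Malat1 the shallow cells overlapped the 10248 shallow barcodes that were not members.

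Ager separated shallow AT1 cells from those other shallow barcodes, as the gate requires, with 0.538% to 1.14% of UMIs against 0.0022% to 0.0114%. Of 1184 genes outside the gate with a mean of at least 200 CPM in either kind, 442 were higher in shallow cells in all 6 libraries and 407 were lower in all 6. Fth1, the ferritin heavy chain, averaged 8712 CPM ± 1408 in shallow and 1271 ± 220 in deep cells (SD, n = 6), and Bag1, a co-chaperone, 1384 ± 353 and 114 ± 38.6. On the other side stood genes such as Nckap5 (239 ± 133 in shallow, 2630 ± 511 in deep), Magi1 (220 ± 125, 2283 ± 253) and Hdac8 (15.4 ± 24.7, 296 ± 19.2). The largest shallow to deep ratios were those of Ctla2a (50.1), Epas1 (29.3) and Ly6a (23.1), each higher in shallow cells in all 6 libraries. Their levels in shallow cells were uneven, at 952 ± 2119, 348 ± 333 and 239 ± 322 CPM (SD, n = 6). Over libraries these ran from 62.9 to 5278, 84.5 to 912 and 21.1 to 881 CPM, so the highest libraries weigh most in the ratios. Genes of other cells were also higher in shallow members, with Mgp of fibroblasts at 213 ± 118 against 23.5 ± 11.2 CPM and Lyz2 of macrophages and AT2 cells at 236 ± 191 against 30.3 ± 9.35. Endothelial markers summed to 0.0106% to 0.0770% of UMIs in shallow cells and 0.0018% to 0.0035% in deep ones. What part such background RNA has in the shallow cells was not tested.

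Identity genes were divided between both kinds of cell. Clic5 was level (3256 CPM in shallow, 3374 in deep), Cldn18, Krt7 and Cryab were higher in shallow cells (shallow to deep ratios of 1.49, 1.27 and 2.98), and Col4a3, Col4a4 and Lama3 were low in them (0.19, 0.145 and 0.184). Sema3e and Sema3a had ratios of 0.134 and 0.165. Collagen and semaphorin transcripts were thus low in shallow cells, which gave at most 11.4% of UMIs in a library.

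**Figure D3:**
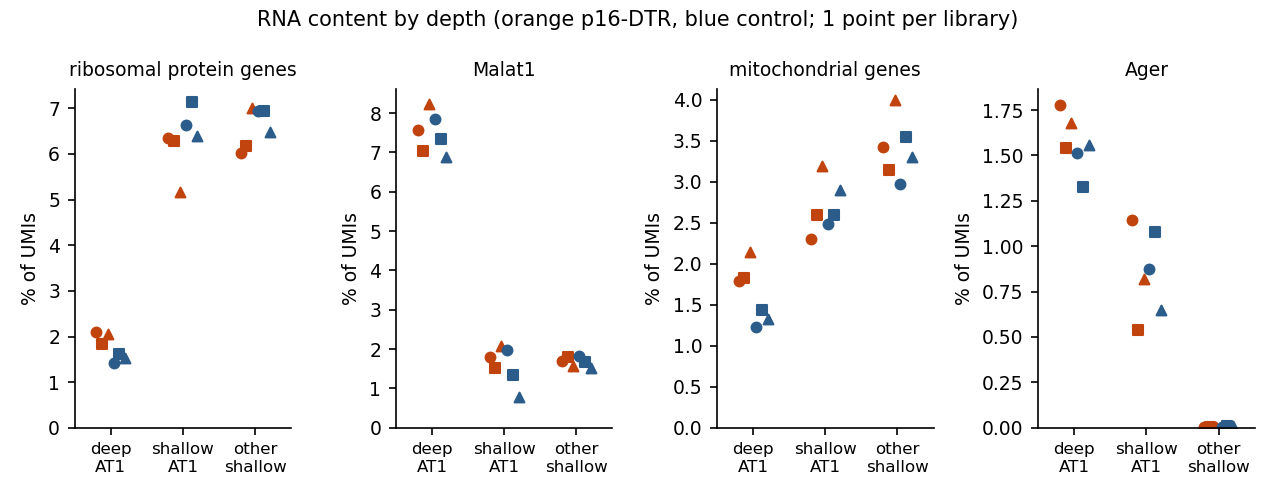
Percent of UMIs (y) from ribosomal protein genes, Malat1, mitochondrial genes and Ager in deep Ager-dense AT1 cells, shallow AT1 cells and other barcodes under 5000 UMIs, 1 point per library. Shallow AT1 cells lie with other shallow barcodes for ribosomal protein genes and Malat1, and between deep AT1 cells and other shallow barcodes for Ager.

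The first comparison asked whether the treatment left fewer AT1 cells in mice with the receptor. AT1 cells were 0.584%, 0.378% and 0.573% of cells without a Ptprc UMI in the p16-DTR libraries and 0.534%, 1.20% and 1.10% in the controls. The first control library lay among the p16-DTR libraries while the other two were higher. The means were 0.512% ± 0.116 and 0.943% ± 0.358 (SD, n = 3 each), and an exact two-sided permutation test gave p = 0.3, where 0.1 is the smallest value that 3 against 3 can give. Deep Ager-dense AT1 cells alone were 0.151%, 0.122% and 0.175% against 0.144%, 0.384% and 0.362% (exact permutation p = 0.3). Without low-Ager members the shares were 0.562%, 0.345% and 0.538% against 0.491%, 1.08% and 0.982% (exact permutation p = 0.3). Only as a share of all retained cells, which also depends on the immune cells, did the groups not overlap (0.366%, 0.225% and 0.319% against 0.373%, 0.814% and 0.717%, exact permutation p = 0.1).

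**Figure D4:**
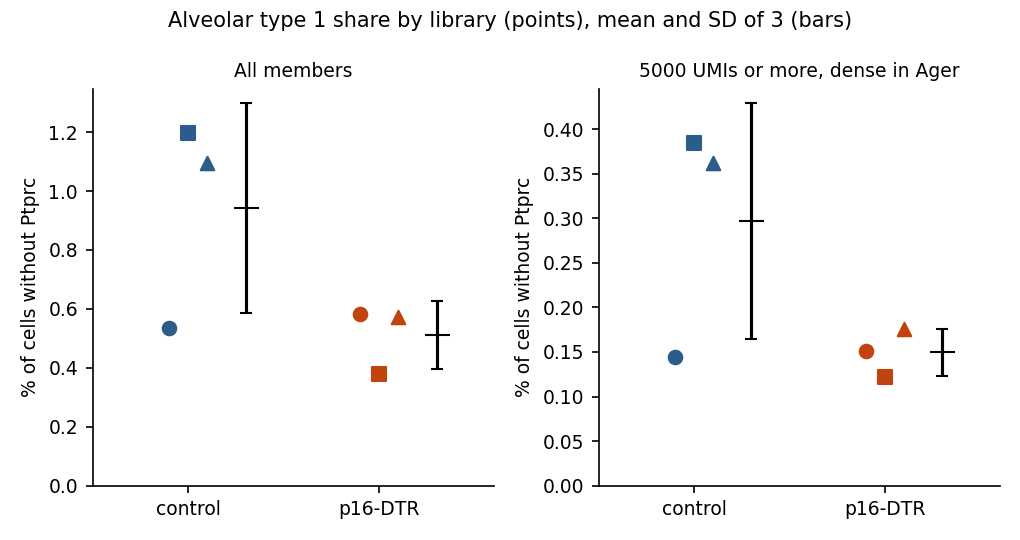
AT1 cells as a percent of cells without a Ptprc UMI (y) in each library, for all members (left) and for those of 5000 UMIs or more that are dense in Ager (right); bars give the mean and SD of 3 libraries. In both panels the first control library lies within the range of the p16-DTR libraries.

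Gene expression in AT1 cells was compared between groups on counts summed per library, with edgeR's quasi-likelihood test and Benjamini-Hochberg adjustment over 7047 genes. Genes were called at an adjusted p under 0.05. Only 3 genes (0.0426%) were called, all lower in p16-DTR (0.0426%), and 567 had an unadjusted p under 0.05. In 929 genes (13.2%) the 3 values of one group all lay on one side of the other 3. The test was also run on simulated counts for this comparison (6851 genes). It called 95 of 98 genes changed by 2 on the log2 scale (96.9%) and 52 of 99 changed by 1 (52.5%). It also called 12 of 6654 unchanged genes (0.180%). The simulation drew all libraries from 1 shared profile, without the uneven low-Ager cells, so these rates may not hold for the real counts.

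The 3 called genes were Mid1, Syne1 and Jun. Mid1, a microtubule-associated ubiquitin ligase gene (chrX:169685199-170005736, GRCm38), had 4.31, 5.85 and 11.6 CPM in the p16-DTR libraries and 76.1, 48.0 and 108 in the controls. All p16-DTR values were below all controls, and the log2 fold change was -3.37 ± 0.46 (SE; edgeR adjusted p = 0.0459). Syne1, which encodes the nuclear envelope protein nesprin-1, had 15.1, 5.85 and 6.93 CPM against 107, 85.4 and 253 (log2 fold change -3.92 ± 0.55, SE; edgeR adjusted p = 0.0459). Jun, a subunit of the AP-1 transcription factor, had 190, 263 and 256 CPM against 629, 468 and 523 (log2 fold change -1.17 ± 0.17, SE; edgeR adjusted p = 0.0486). None of the 3 calls held when any one p16-DTR library was left out, with 0 genes called in each case and a highest adjusted p of 0.573.

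These calls followed the low-Ager cells to different degrees. The 15 deep low-Ager cells supplied 506 of 543 Syne1 UMIs (93.2%), none of them in p16-DTR libraries. Without low-Ager members Syne1 had 15.2, 2.99 and 7.86 CPM against 6.86, 3.13 and 12.4, with full overlap, and was too low to be tested. For Jun the same 15 cells supplied 41.2% of UMIs, and without low-Ager members its log2 fold change was -0.53 ± 0.18 (SE; edgeR adjusted p = 0.336). Jun then had 191, 248 and 228 CPM against 359, 251 and 365, still without overlap. For Mid1 these 15 cells supplied 92 of 269 UMIs (34.2%), all in control libraries. It kept its call without low-Ager members, with 4.34, 5.97 and 13.1 CPM against 78.9, 25.01 and 80.8 (edgeR adjusted p = 0.0417). That left 9 UMIs in p16-DTR and 168 in control libraries. Mid1 averaged 119 CPM in other barcodes, above its level over all AT1 members in every library. DESeq2, a second test, gave it no adjusted p.

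Fos and Fosb encode AP-1 partners of Jun, and 40.8% and 53.4% of their UMIs came from the same 15 cells. Fos had 151, 322 and 342 CPM in the p16-DTR libraries and 613, 577 and 814 in the controls, and Fosb 12.9, 43.9 and 64.7 against 244, 165 and 164. Neither was called (edgeR adjusted p = 0.226 and 0.0927), although DESeq2, which called 20 genes (0.284%), called both (DESeq2 adjusted p = 0.00027 and 2.2e-06). Without low-Ager members the groups overlapped for both, with Fos at 152, 328 and 380 against 175, 322 and 635 CPM. Of the 20 genes tested in the list of dissociation and immediate early genes, Jun was called lower by edgeR and none higher, beside 0.0426% of all genes, while 1 lay above and 6 below without overlap, beside 13.2% of all genes. The list's median log2 fold change was -0.38 with all members and 0.048 without low-Ager members, beside 0.0086 and 6.2e-05 for all genes tested.

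Without low-Ager members, 10 of 6734 genes (0.149%) were called, 9 lower and 1 higher in p16-DTR. They were Sox5, Dnah11, Pde8b, Sema3a, Galnt18, Plekhh2, Arhgef11, Mid1, Hbegf and Aig1, and Mid1 was the one gene shared with the calls over all members. This alternative was chosen after the data were seen. The number of calls moved between 0 and 26 when single libraries were also left out, being 0 without the first control library and 1 without the second p16-DTR library. Of these 6 fits, Sox5 and Pde8b were called in 3, Sema3a, Galnt18, Hbegf, Dnah11 and Plekhh2 in 2, Mid1 and Arhgef11 in 1 and Aig1 in 0. Dnah11 was tested in only 4 of the 6.

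Sema3a (chr5:13125414-13602565) encodes a secreted repellent of axons and growing vessels, and among the cells studied is a strong AT1 transcript. Without low-Ager members it had 729, 723 and 697 CPM in the p16-DTR libraries and 1587, 1452 and 1082 in the controls. The p16-DTR values lay close together and below all controls, with a log2 fold change of -0.92 ± 0.15 (SE; edgeR adjusted p = 0.0182). Only 3 of its 4481 UMIs came from deep low-Ager cells. With all members the change was -0.79 ± 0.17 (SE) and was not called (edgeR adjusted p = 0.226).

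Pde8b (chr13:95024454-95250336), a cyclic AMP phosphodiesterase gene, had 228, 194 and 338 CPM against 748, 556 and 511 without low-Ager members (log2 fold change -1.23 ± 0.20, SE; edgeR adjusted p = 0.0182). Galnt18 (chr7:111471661-111779977), of the family that starts O-linked glycans, had 488, 687 and 608 CPM against 1091, 1097 and 1049 (log2 fold change -0.85 ± 0.15, SE; edgeR adjusted p = 0.0233). The 3 control values of Galnt18 were nearly equal and all p16-DTR values were lower. Sox5, a transcription factor gene, had 115, 59.7 and 86.5 CPM against 239, 301 and 214 (log2 fold change -1.48 ± 0.22, SE; edgeR adjusted p = 0.0182). With all members the Sox5 groups overlapped, 261 CPM being reached in the third p16-DTR library, where 2 deep low-Ager cells lay.

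The remaining lower genes were scarcer. Dnah11, an axonemal dynein gene, had 0, 0 and 2.62 CPM against 20.6, 28.1 and 33.0 without low-Ager members, and 71.8% of its UMIs over all members came from the 15 deep low-Ager cells. Plekhh2 had 49.9, 41.8 and 31.4 CPM against 132, 114 and 94.8, and Arhgef11 106, 95.5 and 76.0 against 220, 172 and 202. Aig1 had 84.6, 92.6 and 86.5 CPM against 170, 165 and 175 (edgeR adjusted p = 0.0493). In each of these 4 genes all p16-DTR libraries were below all controls.

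Promoter sequence is shown for those of the 10 called genes that hold the letters bound by TEAD factors, since these partners of YAP and TAZ belong to AT1 identity. The 250 bases before each RefSeq start (GRCm38.p6) were searched on both strands for GGAATG, which occurs in 12.6% of 32851 windows and in at least 1 window of 14.4% of genes. RefSeq windows were available for 8 of the 10 called genes, 14 windows in all. Genes with more windows have more places for a match, and no test was run on these counts. Of the 8 genes 3 held the letters, in 3 of the 14 windows. The windows are chrX:169684949-169685198 (plus strand, 1 of 3 starts) for Mid1, chr17:84511645-84511894 (plus strand) for Plekhh2 and chr6:143947107-143947356 (minus strand) for Sox5. The Sox5 window lies inside the gene as annotated by GENCODE (chr6:143828425-144781977), at an internal start and not at the gene's outer end. Capitals mark the motif or its reverse complement.
Mid1: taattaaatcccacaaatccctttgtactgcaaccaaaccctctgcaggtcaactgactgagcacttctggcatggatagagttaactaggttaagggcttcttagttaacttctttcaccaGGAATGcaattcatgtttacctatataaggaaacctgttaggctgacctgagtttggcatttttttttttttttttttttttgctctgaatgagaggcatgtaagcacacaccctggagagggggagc
Plekhh2: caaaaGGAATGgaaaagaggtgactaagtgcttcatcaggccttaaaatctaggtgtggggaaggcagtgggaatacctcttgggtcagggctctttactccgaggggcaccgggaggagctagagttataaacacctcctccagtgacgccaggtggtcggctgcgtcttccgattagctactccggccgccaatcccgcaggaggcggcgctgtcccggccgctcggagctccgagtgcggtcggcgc
Sox5: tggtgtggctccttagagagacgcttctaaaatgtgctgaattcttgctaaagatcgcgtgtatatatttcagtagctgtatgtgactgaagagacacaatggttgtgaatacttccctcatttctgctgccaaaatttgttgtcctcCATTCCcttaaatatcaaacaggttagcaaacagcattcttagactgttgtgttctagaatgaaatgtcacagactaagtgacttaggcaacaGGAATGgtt
In Mid1 the motif lies 128 to 123 bases before the start, in Plekhh2 245 to 240, and in Sox5 there is one copy at 9 to 4 bases and one on the opposite strand at 102 to 97. Matches of 6 letters are common, and these data hold no measure of binding.

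One gene was called higher, Hbegf. It encodes heparin-binding EGF-like growth factor, a ligand of the EGF receptor, and its human form is the receptor for diphtheria toxin. With all members Hbegf had 482, 696 and 402 CPM in the p16-DTR libraries and 230, 271 and 251 in the controls. All p16-DTR values lay above all controls, and the log2 fold change was 1.08 ± 0.20 (SE; edgeR adjusted p = 0.155, not called). Without low-Ager members it had 486, 711 and 427 CPM against 252, 317 and 275, with 0.95 ± 0.18 (SE; edgeR adjusted p = 0.0466). Its level was 41.7 CPM in AT2 cells and 4.99 in aerocytes, and its log2 fold changes there were 0.56 ± 0.26 (edgeR adjusted p = 0.46) and 0.070 ± 0.24 (edgeR adjusted p = 0.925). Whether transcripts of the transgenic receptor were counted under Hbegf was not tested.

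Other genes stood higher in p16-DTR and passed the test under some settings only. Zbtb16, a zinc finger factor induced by glucocorticoids, had 144, 140 and 243 CPM against 45.01, 75.6 and 85.0 (log2 fold change 1.34 ± 0.27, SE; edgeR adjusted p = 0.226), and Fkbp5, another glucocorticoid target that was singled out after its values were seen, 92.6, 173 and 199 against 26.4, 72.9 and 37.3 (1.72 ± 0.36, SE; edgeR adjusted p = 0.226). DESeq2 called both, at adjusted p = 0.0034 and 0.0016. Without low-Ager members the differences were 1.32 ± 0.28 and 1.77 ± 0.43 (SE; edgeR adjusted p = 0.0794 and 0.129). In deep Ager-dense members edgeR called Zbtb16 (1.40, adjusted p = 0.0373), and over all its alternatives the adjusted p ran from 0.0034 to 0.86. Of the 18 genes tested in the list of glucocorticoid response and clock genes, none was called by edgeR, 4 had p16-DTR above without overlap and 1 below, beside 13.2% of all genes without overlap, and the median log2 fold change was 0.138 (0.153 without low-Ager members), beside 0.0086 for all genes.

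Sparc, a matricellular protein gene, had 5927, 5956 and 4844 CPM against 3632, 3641 and 3906, without overlap (log2 fold change 0.60 ± 0.14, SE; edgeR adjusted p = 0.233; DESeq2 adjusted p = 0.0052), and 0.46 ± 0.11 without low-Ager members (SE; edgeR adjusted p = 0.129). Igfbp2, a marker of terminally differentiated AT1 cells, had 6855, 2735 and 2784 CPM against 1793, 2113 and 2214. The first p16-DTR library was more than 2 times as high as any other, and the log2 fold change of 1.04 ± 0.30 (SE) was not called (edgeR adjusted p = 0.416). Without low-Ager members it was 0.89 ± 0.24 (SE; edgeR adjusted p = 0.158). With all members but without the first p16-DTR library, the Igfbp2 log2 fold change was 0.45 (edgeR adjusted p = 0.609).

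**Figure D5:**
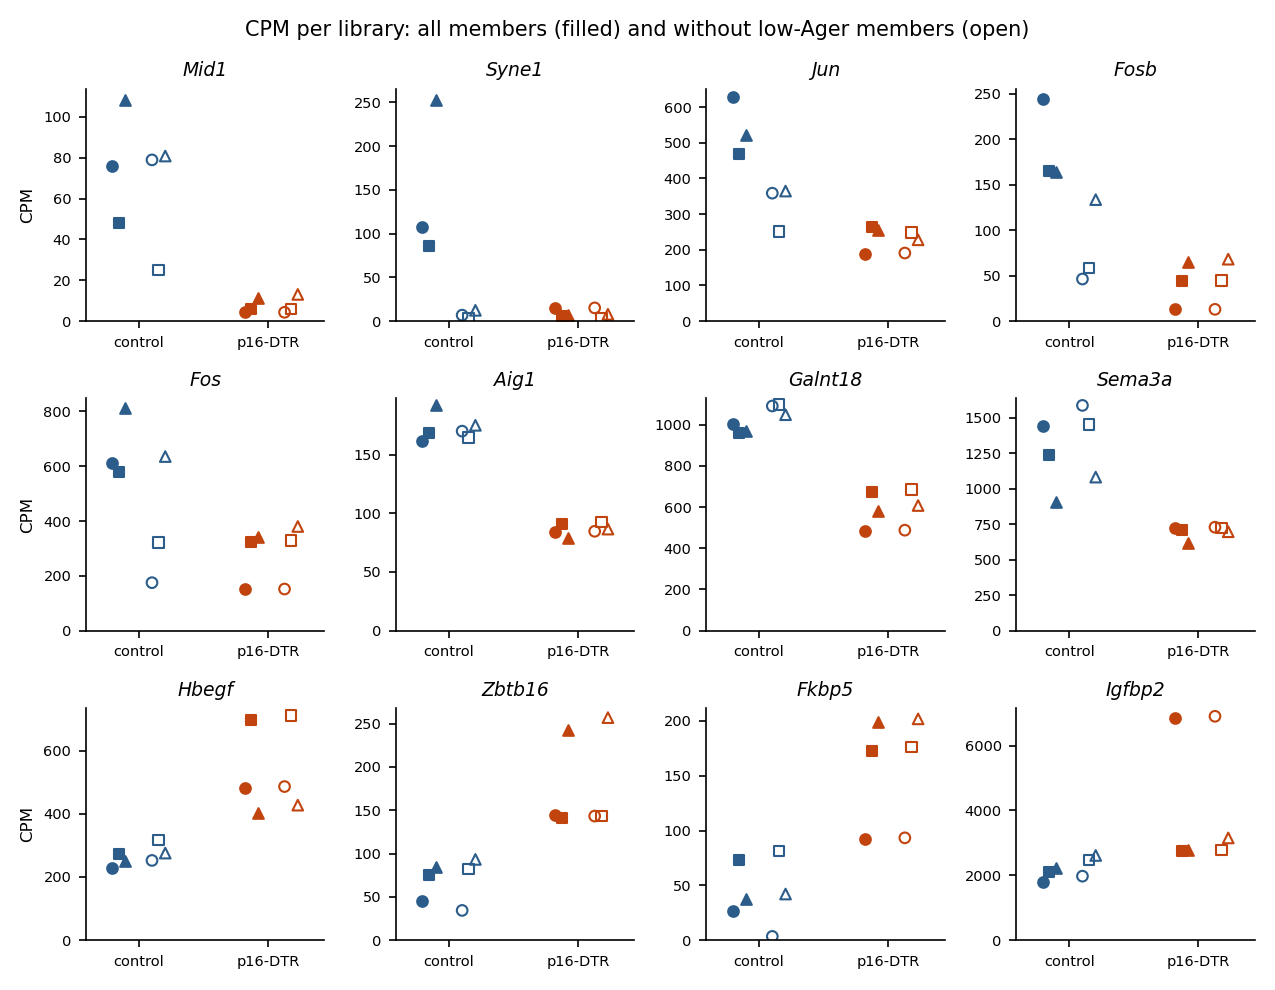
CPM (y, from 0) of 12 genes in the AT1 cells of each library, 1 point per library, for control (blue) and p16-DTR (orange); filled points are all members and open points leave out the low-Ager cells. Control values of Syne1, Jun, Fosb and Fos drop when those cells are left out, Jun still without overlap. Galnt18, Sema3a, Hbegf and Aig1 keep their separation.

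The shares of RNA classes are given beside these genes, without a test. In deep Ager-dense cells, mitochondrial genes gave 1.79%, 1.83% and 2.15% of UMIs in the p16-DTR libraries and 1.23%, 1.43% and 1.33% in the controls. Ribosomal protein genes gave 2.10%, 1.83% and 2.04% against 1.43%, 1.62% and 1.53%. The p16-DTR libraries were above the controls in both. In shallow cells ribosomal protein genes were lower in p16-DTR (6.34%, 6.28% and 5.16% against 6.64%, 7.14% and 6.40037%) and mitochondrial shares overlapped, and over all members ribosomal shares overlapped while mitochondrial shares did not (1.85%, 1.90% and 2.24% against 1.32%, 1.49% and 1.66%). The part of these classes in the group differences was not tested. Summed AT1 counts of the p16-DTR libraries were also smaller, at 341827 to 464331 UMIs against 644248 to 1447769.

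The gene lists were described by counts, since earlier results were known when the lists were chosen. Each count without overlap is to be read beside the 13.2% of all genes tested without overlap in either direction, and each median beside 0.0086 for all genes. Apart from Jun, which belongs to the immediate early list, edgeR called no member of the 21 pathway lists with all members. DESeq2 also called Fosb, Fos, Hbegf, Fkbp5, Zbtb16, Sparc, Sema3a and Igfbp5. Of the 26 AT1 identity genes, 7 had p16-DTR above without overlap (Igfbp2, Spock2, Cryab, Krt7, Emp2, Pxdc1 and Cyp2b10) and none below, beside 13.2% of all genes. Their median log2 fold change was 0.10 with all members and -0.030 without low-Ager members, so the list's sign depended on those cells. Emp2, for example, had 4510, 3733 and 4133 CPM against 3584, 3574 and 3389.

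No regulator of AT1 identity was called. Of 18 tested alveolar epithelial transcription factors, 5 had p16-DTR below without overlap (Id2, Tead1, Foxa2, Wwtr1 and Tead3) and none above, beside 13.2% of all genes, with a median log2 fold change of -0.14 (-0.17 without low-Ager members). Tead1, a DNA-binding partner of YAP and TAZ, had 997, 933 and 947 CPM against 1357, 1160 and 1108 (log2 fold change -0.31 ± 0.13, SE; edgeR adjusted p = 0.572), and Wwtr1, which encodes TAZ itself, 146, 167 and 134 against 182, 173 and 190 (-0.27 ± 0.16, SE; edgeR adjusted p = 0.713). Of 20 tested YAP and TAZ pathway genes 6 were below and 2 above without overlap. The pathway's secreted targets Cyr61 (1008, 1223 and 483 against 709, 480 and 695 CPM) and Ctgf (605, 688 and 476 against 453, 517 and 489) overlapped between groups.

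Basement membrane genes were mixed. Of 18 tested, 5 were above (Sparc, Col4a2, Col4a1, Lama5 and Lamb2) and 1 below (Col4a6) without overlap, beside 13.2% of all genes. None was called by edgeR, and Sparc was called by DESeq2. The median was 0.257 with all members and 0.054 without low-Ager members. Col4a2 had 1208, 1097 and 973 CPM against 869, 836 and 816 (edgeR adjusted p = 0.504), whereas the α3 and α4 chain genes overlapped. Keratin and cytoskeleton genes had 7 of 24 above and none below, beside 13.2% of all genes without overlap, with a median of 0.215 (0.224 without low-Ager members), among them S100a6, a calcium-binding protein gene, at 3080, 3221 and 2342 CPM against 2091, 1888 and 2184 (edgeR adjusted p = 0.409). Of 21 tight and adherens junction genes 1 was above, of 8 caveola genes 2, and of 17 ion and water transport genes 1 above and 1 below.

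Among 18 tested ligands to neighbouring cells, 2 were above (Hbegf and Igfbp2) and 5 below (Sema3a, Efna1, Shh, Wnt3a and Sema3e) without overlap, beside 13.2% of all genes. Without low-Ager members Hbegf and Sema3a were called, 2 of 17, beside 0.149% of all genes. In the list of the Krt8-positive transitional state, through which AT2 cells pass on their way to AT1 cells, 4 of 17 were above and 1 below, with a median of 0.154. Its protease gene Ctsh had 599, 1188 and 529 CPM against 444, 349 and 481 (edgeR adjusted p = 0.416).

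In the following lists edgeR called no member with all members, whereas DESeq2 called Igfbp5 of the senescence secretome. Heat shock chaperones had 3 of 15 above and none below (median 0.291), with Hsp90aa1 at 1747, 1352 and 1141 CPM against 1077, 1072 and 1080 (edgeR adjusted p = 0.556). Oxidative phosphorylation genes had 4 of 26 above and none below (median 0.147). Interferon response genes had 1 above and 1 below of 14, NF-kB response genes 1 above and 2 below of 13, TGF-beta and BMP response genes 2 below of 19, and MHC presentation genes and BCL2 family genes none of 11 and 7. Cell cycle inhibitors and p53 targets had 1 of 14 below (Mdm2), and the senescence secretome 1 of 9 above and 1 below, most of its 34 members being too low to be tested.

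Differences in the group effect between AT1 cells and other cells of the same libraries were tested directly. Against 497 AT2 cells, 0 of 11032 genes (0%) differed in their group effect (734 had an unadjusted p under 0.05), and against 2496 aerocytes 0 of 12448 (0%; 695 unadjusted), by edgeR with the library as a block. Without low-Ager members the AT2 comparison still gave 0, and the aerocyte comparison gave 5 of 12134 (0.0412%), Spp1, Sox5, Galnt18, Dnah11 and Kcnq5. Galnt18 was the most abundant of them on both sides, with 1228 to 1779 CPM in aerocytes. Its group effect in AT1 cells was 1.18 ± 0.19 (SE, log2 scale) below that in aerocytes (difference of -1.18, edgeR adjusted p = 0.0152). In AT1 cells 3 of 3 p16-DTR libraries were below the controls. Galnt18 had a log2 fold change of 0.33 ± 0.078 within aerocytes (SE; edgeR adjusted p = 0.106). Within AT2 cells it was -0.49 ± 0.24 (SE; edgeR adjusted p = 0.483). The AT1 difference from AT2 cells was -0.20 ± 0.30 with all members (SE; edgeR adjusted p = 0.945). Sox5 differed by -1.996 ± 0.28 (SE; edgeR adjusted p = 0.00503). Spp1 and Kcnq5 ranged from 0 to 250.1 and 0 to 300.1 CPM over AT1 libraries without low-Ager members. With all members Spp1 had 0, 0 and 85.5 CPM in the p16-DTR libraries and 0, 213 and 0.691 in the controls. Kcnq5 had 2.15, 0 and 511 against 15.5, 256 and 0.691. Among the controls both genes were thus high mainly in the second library.

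Another gate relaxed the exclusions and tightened Ager density together. With up to 2 UMIs of each excluded gene allowed and at least 5 Ager UMIs per 1000 required, it held 34 to 98 cells per library, against 34 to 115 in the main gate, and 40 of 7699 genes (0.52%) were called, 18 higher and 22 lower in p16-DTR. They included Hbegf (log2 fold change 0.89, edgeR adjusted p = 0.0074), Igfbp2 (0.92, adjusted p = 0.0288), Galnt18 (-0.66, adjusted p = 0.0215), Mid1 (-2.27, adjusted p = 0.0296) and Cdkn1a (1.03, adjusted p = 0.032), but not Sema3a (-0.60, adjusted p = 0.105). Cdkn1a averaged 1092 CPM in aerocytes and 320 in other barcodes, against 61.1 (p16-DTR) and 56.0 (control) in AT1 cells of the main gate. The part that cells with UMIs of excluded genes have in its call was not tested. This gate was chosen after the data were seen, and the looser gate called 0 genes.

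Cdkn2a encodes p16, whose promoter drives the recombinase, and p16-expressing cells are those the design targets. Only 15 Cdkn2a UMIs were found, in 7 members of the gate, too few for the test across genes. In the p16-DTR libraries 2 of 54, 0 of 34 and 3 of 49 AT1 cells had a UMI, and in the controls 1 of 63, 0 of 106 and 1 of 115. After thinning to 5000 UMIs, which left out 40, 23, 32, 45, 65 and 72 shallower cells, the numbers were 2 of 14 (14.3%, 95% Wilson interval 4.01% to 39.9%), 0 of 11 and 2 of 17 (11.8%, 3.29% to 34.3%) in p16-DTR, and 0 of 18, 0 of 41 and 0 of 43 in control libraries. The count of 0 allows a share of up to 27.3% in the second p16-DTR library and of up to 16.7%, 7.32% and 6.98% in the controls. These limits are for cells detected at 5000 UMIs and not for cells that express Cdkn2a. The groups overlapped (exact permutation p = 0.4). Thinned to 3000 UMIs, no p16-DTR cell and 1 cell of the first control library had a UMI. That control cell was a low-Ager one with 2 Ager UMIs in 54143, 31 UMIs of the mesothelial marker Upk3b and 7 of the 15 Cdkn2a UMIs. Without low-Ager members, 0 of 20 cells of that library and 1 of 18 of the third p16-DTR library had a UMI at 3000, and at 5000 the difference was 6.98 percentage points (exact permutation p = 0.4). Each thinning was 1 random draw, made anew for each set of cells. The 2 deep low-Ager cells of the third p16-DTR library held no Cdkn2a UMI. Its counts of 0 of 20 and then 1 of 18 at 3000 thus moved with the draw. So did its 2 of 17 and then 1 of 15 at 5000.

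For comparison, AT2 cells thinned to 5000 UMIs had 2%, 3.95% and 5.33% in p16-DTR and 0 of 83, 0 of 89 and 0 of 102 in the controls, and unthinned 8 of 51, 6 of 78 and 12 of 75 against 0 of 88, 0 of 97 and 1 of 108. Neutrophils thinned alike had 0.513%, 0.563% and 1.84% in p16-DTR and 0% in each control library, and aerocytes 8.25%, 8.10% and 8.90% against 8.81%, 11.1% and 10.4%. No AT1 cell had a tdTomato UMI. Cdkn1a, which encodes the other cell cycle inhibitor p21, had 30.2, 90.7 and 62.4 CPM against 52.8, 51.6 and 63.5, with overlap and a log2 fold change of 0.090 ± 0.31 (SE; edgeR adjusted p = 0.971), and 0.55 ± 0.31 without low-Ager members (edgeR adjusted p = 0.652). Cdkn2b, which encodes p15, had 190, 135 and 143 CPM against 203, 177 and 178, and was at 6.62 CPM in AT2 cells.

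AT1 cells also varied among themselves within a library. In cells thinned to 5000 UMIs, the squared coefficient of variation beyond counting was ranked over 519 genes, with a median of 0.248 over all of them. The 15 most variable were Tm4sf1, Aldh1a1, Hdac8, Ctgf, Pde4d, Cyr61, Igfbp2, Diaph2, Fbxl7, Rpl23, Tpt1, Rps2, Rps24, Lrmda and Scel. Tm4sf1, a tetraspan membrane protein gene, had 1.44 (0.914 to 2.87 over libraries) and a UMI in 36.4% to 67.4% of thinned cells. Without low-Ager members it remained the first of 531 genes at 1.35, and Ctgf, the YAP and TAZ target, had 1.13 and Igfbp2 0.956, beside a median of 0.165. Igfbp2 was found in 63.6% to 97.1% of those thinned cells, and 8 of the 129 deep Ager-dense cells had none of it.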

How the data were processed

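Single-cell RNA was measured in 6 lung libraries, 3 per group. As deposited, the values are raw UMI counts of each gene in each barcode, made with Cell Ranger 8.0.1 per the file headers, on the build mm10 per the submitters' processing notes. The members and gene lists were chosen with earlier results of these data known.

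AT1, AT2, aerocyte and neutrophil barcodes were gated on raw counts. Doublet prediction simulated 2 doublets for every cell, used 30 principal components and assumed 0.4% per 1000 barcodes. Counts of gated cells were summed per library. AT1 sums were 341827 to 1447769 UMIs, and 3 counts in a library equal 2.07 to 8.78 CPM. The test was edgeR 4.0.16 (R 4.3.3) with filterByExpr, TMM factors, the group alone and Benjamini-Hochberg adjustment at 0.05. The 9 gate genes stayed in library sizes and left the test. Differences between cell types were tested with the library as a block. A fold change's SE was taken as its size divided by the root of F. Shares were tested by exact two-sided permutation over 20 assignments. Thinning drew 5000 UMIs per cell. The test was checked on simulated counts. Scripts ran on Python 3.11.15 with scipy 1.17.1.

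Genes named are the gate genes, Cdkn2a, Cdkn1a, tdTomato and AT1 identity genes; called genes; where under 10 were called, those of smallest p with at least 20 CPM and no overlap; up to 4 members of each list with the highest CPM; the 20 genes highest against other barcodes; and the 15 most variable. Others were named after their values were seen. Gene positions are from GENCODE M21 (GRCm38), and promoters from RefSeq (GRCm38.p6). The alternatives were other scaling, DESeq2 1.42.0, no filter, a replicate block, leaving out single libraries, other cell filters and gates, doublets left out, equal cells, and, added after the data were seen, 3 subsets by Ager density, depth or exclusion genes.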

Additional observations from a re-analysis of the deposited data

How the results depend on the processing

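The 3 genes called between groups stayed 3 with RLE factors, the stricter cell filter and cells over 1% AT2 UMIs left out; with equal cells per library the number was also 3, but 0 of them were shared. No member was a predicted doublet, so leaving doublets out removed no AT1 cell. It was 0 with library size scaling, 0 with the looser gate, 20 with DESeq2, 206 without a filter on low counts, 11 with the stricter gate, 10 without low-Ager members, 15 with deep Ager-dense members and 40 with the gate that relaxes the exclusions and tightens Ager density. Leaving out 1 library gave 0 to 146 calls, with 0 without each p16-DTR library, 146 without the first control, 2 without the second and 1 without the third. With the replicate block 14 were called, 3 of them shared. Same-numbered libraries had correlations of 0.125, -0.109 and 0.0936, and other pairs across groups ran from -0.172 to 0.141. The labels do not say whether the numbers pair mice, and correlations over so few cells cannot decide it. Jun had a log2 fold change of 0.11 with the looser gate. The AT2 interaction gave 0 calls, 176 without a filter, 1 with the stricter gate and 0 to 6 with a library left out; the aerocyte interaction gave 0, 200 without a filter, 4 with the stricter gate, 5 without low-Ager members and 0 to 17. The AT1 share kept its sign in every alternative run; its p could not pass 0.05, since 0.1 is the smallest that 3 against 3 can give. The Cdkn2a share difference was 8.68 percentage points and -1.59 with thinning to 3000 UMIs, where the 1 positive cell was a low-Ager control cell. Each thinning was 1 random draw, and the draw alone moved these small counts. Leaving out a library kept the sign of the difference of 8.68. The causes were not tested. Depth limits the report through the 34 to 115 cells per library, of which 11 to 43 had 5000 UMIs.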
